A study of Homo sapiens with 18 samples.

Results

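Transcripts of 42 genes of the lysosome and its proton pump were followed in human osteosarcoma cells. The genes were listed by name and comprise 15 subunits of the vacuolar ATPase, 7 lysosomal membrane or transport proteins, the transcription factor TFEB, 7 proteases, 7 glycosidases and 5 proteins of lipid breakdown. Of these 42 genes, 40 had an array probe set annotated to them alone, out of 19775 such genes on the array, and all 40 were among the 14418 genes tested. ATP6V1F and GLB1 were represented only by a probe set shared with other genes and were not analysed here.

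MNNG/HOS (MNNG) and 143B are established human osteosarcoma lines. All groups carried ZsGreen, a green fluorescent protein, and came from orthotopic tumors. Cells had been stained with the membrane dye PKH26, whose signal thins out as cells divide. Cells of the soft tissue part of bone tumors were sorted into a dye-retaining fraction (High, named tumor-initiating cells in the labels; 150000 cells) and a dye-low fraction (Low, named bulk tumor cells; 700000 cells). The groups were MNNG_High (n = 4 tumors), MNNG_Low (n = 4), 143B_High (n = 3), 143B_Low (n = 5) and MNNG_Lung (n = 2), the last from lung metastases of MNNG. A pair of the 143B_High arrays each held RNA of 2 pooled tumors, and 1 lung array held a mixture. Any sorting of the lung cells, the host strain and the age of the hosts were left unstated in the labels. A further MNNG tumor of the design was not analysed here.

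The vacuolar ATPase (V-ATPase) pumps protons into lysosomes and other compartments. Its V1 sector, in the cytosol, hydrolyses ATP, and its V0 sector, in the membrane, carries the protons. Subunit d of V0 connects the sectors and exists as ATP6V0D1, found in most cells, and ATP6V0D2, known from osteoclasts, macrophages and kidney. The acid interior activates cathepsins, glycosidases and lipid hydrolases, whose loss causes storage diseases. TFEB, with its relatives TFE3 and MITF, binds a CACGTG-type site called the CLEAR element in the promoters of many lysosomal genes. In bone, osteoclasts also place the V-ATPase in their surface membrane and secrete cathepsin K.

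The RefSeq promoter table (GRCh38.p14, 250 bases before to 50 after each start) held 29 of the 42 genes. It had no entry for ATP6V0D2, ATP6V0E1, ATP6V1A, ATP6V1B2, ATP6V1C1, ATP6V1H, LAMP2, CTSB, CTSK, HEXA, MANBA, PSAP or ASAH1. The core TCACGTG, searched on both strands, was in the promoter of 9 of these 29 genes (31.0%) and of 4.49% of the 27305 genes of the table. Its palindromic extension TCACGTGA, whose matches also hold the core, was in 6 of 29 (20.7%) and in 1.18% of all. Those 6 genes were ATP6V0D1, ATP6V1G1, LAMP1, MCOLN1, CTSA and GAA. The 100 bases before the start are printed for 5 of them, whose transcripts went in different directions below. LAMP1, with 2 matches in its promoter and a lower signal on the lung arrays, is not printed. Capitals mark TCACGTGA. A match describes letters only and is not a measured site.
MCOLN1: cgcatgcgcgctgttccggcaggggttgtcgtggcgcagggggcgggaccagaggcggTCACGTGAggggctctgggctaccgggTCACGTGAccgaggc
ATP6V0D1: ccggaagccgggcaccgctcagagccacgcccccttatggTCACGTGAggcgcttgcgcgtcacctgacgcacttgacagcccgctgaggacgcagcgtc
ATP6V1G1: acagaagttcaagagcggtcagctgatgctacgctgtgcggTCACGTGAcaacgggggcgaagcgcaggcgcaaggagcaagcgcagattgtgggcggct
GAA: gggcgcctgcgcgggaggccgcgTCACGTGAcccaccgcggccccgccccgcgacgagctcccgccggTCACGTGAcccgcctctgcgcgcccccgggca
CTSA: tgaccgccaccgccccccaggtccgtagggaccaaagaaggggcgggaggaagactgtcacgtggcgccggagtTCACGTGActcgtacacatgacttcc
These stretches lie at chr19:7522524-7522623 (plus strand), chr16:67481158-67481257 (minus), chr9:114587669-114587768 (plus), chr17:80101481-80101580 (plus) and chr20:45891235-45891334 (plus), in the same order. MCOLN1 and GAA held 2 matches each in this stretch and the others 1 each.

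Values below are log2 signals made by the authors with RMA, so a difference of 1 is a 2-fold change. Differences are given ± the standard error of a limma fit over all 18 arrays. A gene was called when its p-value, adjusted by Benjamini-Hochberg over all 14418 genes, was under 0.05. Signals of different probe sets are not on one scale, so differences rather than levels were compared between genes, except where a gene's signal serves as a rough measure of brightness beside the lung values. Of the 40 genes, 36 reached the table median of 5.36 on every array. Within bone tumor groups arrays correlated at 0.956 or more, and the 2 lung arrays at 0.865. The interquartile range of the signal was 2.76 to 3.18 in MNNG_High, 3.29 to 3.40 in MNNG_Low, 3.26 to 3.34 in 143B_High, 3.30 to 3.48 in 143B_Low and 2.28 and 2.09 on the lung arrays. The sample descriptions carry a date tag. All MNNG_High and lung arrays had one tag, with MNNG_Low array MNNG-1231 alone among the Low arrays, and the other 3 MNNG_Low arrays had another. All 143B arrays carried a tag that no MNNG array had. Between 143B_Low and MNNG_Low, line and tag therefore cannot be told apart. Values of MNNG fractions are given below by tumor, first MNNG-1231, then MNNG-1232, then MNNG-1233 and last MNNG-1235, and those of 143B_Low in the order 143B-1251 to 143B-1255. The 143B_High arrays follow in the order 143B-1253, pool 51&52 (read as tumors 143B-1251 and 143B-1252) and pool 54&55 (143B-1254 and 143B-1255).

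ATP6V0D2 was the member that differed most between the MNNG fractions. Its log2 signal was 8.57, 7.95, 8.71 and 7.76 in MNNG_High. In MNNG_Low it was 6.25, 6.48, 6.32 and 6.14. Every High array lay above every Low array (5 of the 40 genes did not overlap, beside 29.8% of all genes), and the difference within a tumor was 2.32, 1.48, 2.39 and 1.62. The mean was 8.25 ± 0.47 (SD, n = 4) against 6.30 ± 0.14 (SD, n = 4). That is 3.87-fold higher in MNNG_High (1.95 ± 0.21, limma adjusted p = 1.17e-04), rank 12 from the top of 14418 genes.

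The same gene in 143B was 7.05, 6.50 and 6.75 in High. In 143B_Low it was 6.20, 5.53, 6.39, 6.0 and 6.07. High and Low arrays did not overlap here either, as for 5 of the 40 genes and 11.9% of all tested genes in this comparison. The difference of 0.73 ± 0.22 was not called (adjusted p = 0.604), with rank 40 from the top. Each of the 7 tumors or pools was higher in High than in its own Low arrays. The difference between the lines, 1.22 ± 0.30, was not called (adjusted p = 0.435). With limma array weights, both were called (adjusted p = 0.0331 and 0.0374).

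Lung metastases had the highest ATP6V0D2 signal, 11.27 in MNNG-Lung 1233 and 11.36 in the mixture. This was 32.4-fold above MNNG_Low (5.02 ± 0.26, adjusted p = 2.14e-12) and 8.38-fold above MNNG_High (3.07 ± 0.26, adjusted p = 2.94e-09), rank 3 from the top in both. The order of the group means was 143B_Low, MNNG_Low, 143B_High, MNNG_High and MNNG_Lung. The first and second of these, 143B_Low and MNNG_Low, overlapped and were not called apart (-0.26 ± 0.20, adjusted p = 0.381). All 3 probe sets of ATP6V0D2 were higher in MNNG_High and on the lung arrays than in MNNG_Low. In MNNG their High minus Low differences were 3.0, 1.95 and 1.46. The first and last of these are from the sets not used, which averaged 4.41 and 4.31 in MNNG_Low, under the table median. Those sets reached the table median on 6 arrays each, all of MNNG_High or the lung. Their direction is therefore given, and the size of their differences is uncertain.

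**Figure D1:**
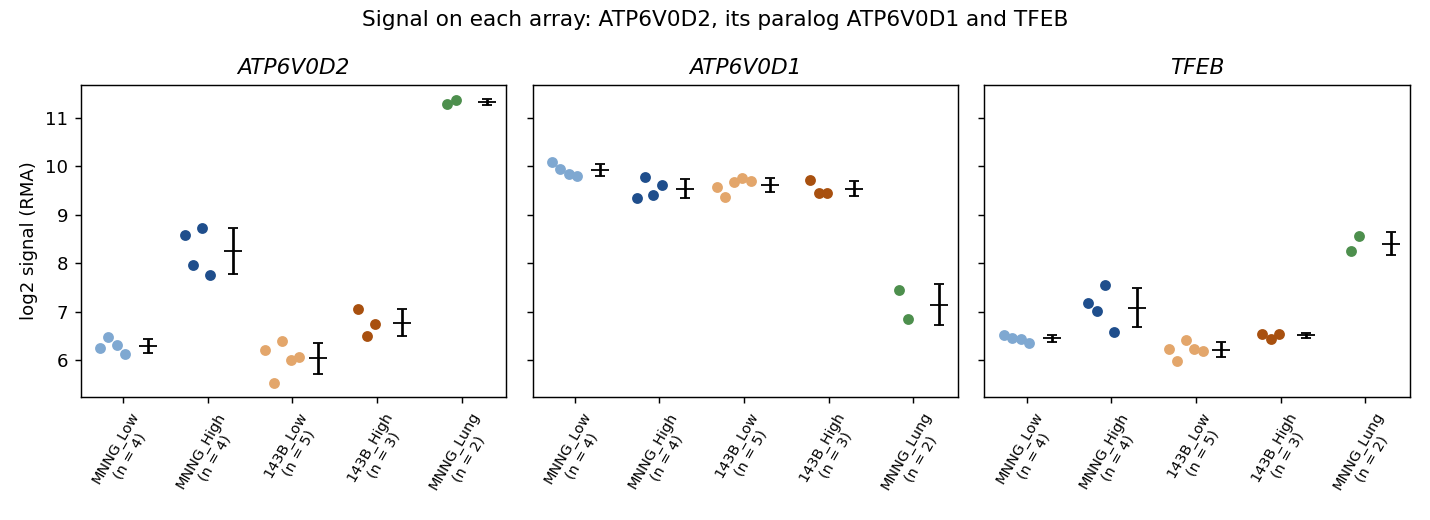
Log2 signal (vertical axis) on each of the 18 arrays, by group (horizontal axis), for ATP6V0D2, ATP6V0D1 and TFEB; points are arrays, and the bar beside them is the mean ± SD. ATP6V0D2 lies between 7.76 and 8.71 in MNNG_High and between 6.14 and 6.48 in MNNG_Low, while ATP6V0D1 is lowest on the lung arrays, at 7.44 and 6.84; heights of different panels are different probe sets and cannot be compared.

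Other measures moved with ATP6V0D2, and their part in its difference was not tested. In MNNG_High the arrays in descending order of ATP6V0D2 (MNNG-1233, MNNG-1231, MNNG-1232, MNNG-1235) had ascending interquartile ranges of 2.76, 2.84, 3.07 and 3.18. Adding the date tag to the fit gave a difference of 2.0 (adjusted p = 0.0555), and within the shared tag, against 1 Low array, it was also 2.0 (adjusted p = 0.931). Without each array in turn it stayed between 1.80 and 2.12 and was called each time.

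Markers of other cell types were set beside it because ATP6V0D2 is known from osteoclasts and macrophages. None of 7 tested osteoclast markers was called between the fractions of either line. In MNNG 4 were above 0 and 3 below (median 0.02, beside -0.19 over all genes). In 143B, where 0.00694% of all genes were called, all 7 were above 0 (median 0.32, beside -0.02 over all genes). ACP5, a defining osteoclast enzyme, was not tested. Of 10 tested macrophage markers, 4 were higher in MNNG_High, namely AIF1, a calcium-binding protein (2.34 ± 0.27), SPI1, a myeloid transcription factor (1.65 ± 0.28), the receptor chain FCER1G (0.88 ± 0.18) and the complement protein C1QA (0.62 ± 0.15). None was lower. The median of the 10 macrophage markers was 0.47. In 143B none of these 10 was called, and 9 were above 0 (median 0.30). Of 8 lung epithelium markers 2 were higher and 1 lower in MNNG_High (median 0.26), and of 6 endothelium markers 1 was higher (median 0.27). Over all genes 26.1% were called between the MNNG fractions (10.6% higher, 15.5% lower). The mean signal of the 17 measured macrophage markers was 5.60 to 6.09 in MNNG_High, 5.14 to 5.28 in MNNG_Low, 4.96 to 5.23 in 143B_High, 4.74 to 4.87 in 143B_Low and 6.68 and 6.72 in the lung. PTPRC and LYZ, defining markers of white cells, had means of 4.06 and 4.61 in MNNG_High and 3.23 and 3.83 in MNNG_Low, all under the table median. In bulk RNA, fewer cells of a type and less RNA per cell cannot be told apart.

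Of the 13 other measured V-ATPase subunits, 1 was called higher in MNNG_High and 1 lower. In MNNG the comparison asked which transcripts mark the dye-retaining cells, and over all genes 26.1% were called (10.6% higher, 15.5% lower). The median of the 13 subunits other than ATP6V0D2 was -0.29, beside -0.19 over all tested genes. The High minus Low difference of ATP6V0D2 exceeded the median difference of the other 13 by 2.24 in MNNG. In 143B this shift was 0.81, and for the lung arrays against MNNG_Low 7.59.

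In the V0 sector, the paralog ATP6V0D1 was 9.35, 9.77, 9.40 and 9.62 in MNNG_High and 10.08, 9.94, 9.85 and 9.80 in MNNG_Low. All High arrays lay below all Low arrays, opposite to ATP6V0D2, but the difference was not called in the fit over all 18 arrays (-0.38 ± 0.15, adjusted p = 0.0584). It was called once the lung arrays were left out, without the tumor as a block (adjusted p = 0.0197) and with it (0.0151). In 143B, ATP6V0D1 differed by -0.07 ± 0.15 between the fractions, with overlapping arrays. ATP6V0C, the proton-carrying ring subunit, was called higher in MNNG_High (0.32 ± 0.11, adjusted p = 0.0463). It was higher in all 7 tumors or pools, by 0.09 to 0.64 in MNNG and 0.07 to 0.36 in 143B. Its call held in 1 of the 8 fits that left out an MNNG array, the one without High MNNG-1235. ATP6V0A1, ATP6V0A2, ATP6V0B and ATP6V0E1 were not called in MNNG (0.11, -0.49, -0.04 and -0.29).

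All 7 measured V1 subunits had negative values in MNNG_High against MNNG_Low, from -0.40 to -0.09, with a median of -0.30. ATP6V1E1, part of the stalk that holds the sectors together, was the only V1 subunit called (-0.40 ± 0.14, adjusted p = 0.0469). It lost that call in 6 of 8 fits that left out an array, with an adjusted p up to 0.158. A second quantile normalization moved it to -0.09 and moved the median over all genes from -0.19 to 0.01. The 7 V1 values were also negative in 143B, from -0.21 to -0.03 (median -0.11, beside -0.02 over all genes), and none was called. The uniform sign rests on the sets used. Among the other V1 probe sets, ATP6V1A (0.27), ATP6V1C1 (0.15) and ATP6V1D (0.03 and 0.18) were above 0 in 143B. In MNNG this held for ATP6V1H (0.26), ATP6V1C1 (0.27) and ATP6V1D (0.27). The remaining other sets were below 0 in both lines. On the set used, ATP6V1A, the catalytic subunit, was -0.39 ± 0.15 in MNNG and -0.19 ± 0.16 in 143B. On that set it was lower in High in 7 of 7 tumors or pools. In MNNG it was called without the lung arrays, unblocked (adjusted p = 0.0269) and blocked by tumor (0.0142).

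Beyond the pump, TFEB was 7.18, 7.01, 7.55 and 6.59 in MNNG_High, against 6.52, 6.46, 6.45 and 6.36 in Low. All High arrays lay above all Low arrays, with MNNG-1235 closest to them. The difference was 0.63 ± 0.16 (adjusted p = 0.0135) and was called without each array in turn (0.48 to 0.80). In 143B, TFEB was 6.55, 6.45 and 6.54 in High and 5.99 to 6.42 in Low. These arrays did not overlap either, but the difference of 0.30 ± 0.17 was not called. TFE3 (-0.04 ± 0.14) and MITF (-0.08 ± 0.24) were not called in MNNG, and TFEC, the remaining relative, was not tested.

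MCOLN1, a lysosomal calcium channel whose promoter holds 2 of the matches printed above, was 7.64, 7.36, 7.67 and 7.36 in MNNG_High, and 7.11, 6.78, 7.36 and 6.90 in Low. The groups touched at 7.36, yet each tumor was higher in High, by 0.31 to 0.58 (0.47 ± 0.14, adjusted p = 0.0227). It was called in 4 of 8 fits that left out an array, and not without High MNNG-1231, High MNNG-1233, Low MNNG-1232 or Low MNNG-1235 (adjusted p 0.0633 to 0.0693). NPC1, which exports cholesterol from the lysosome, was 7.44, 7.57, 6.83 and 7.55 in High and 7.84, 7.79, 7.99 and 7.76 in Low. Its difference of -0.50 ± 0.16 was called (adjusted p = 0.0317), and High MNNG-1233 lay lowest. Without that array it was -0.33 (adjusted p = 0.104), and among the fits that left out an array it was called only without High MNNG-1232 or High MNNG-1235. Its second probe set was at 0.08.

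On the probe sets used, the other membrane proteins LAMP1, LAMP2, CD63, SCARB2 and NPC2 lay between -0.14 and 0.15 in MNNG, and none was called. The other sets of LAMP1 were at -0.25, -0.17 and -0.48, and those of LAMP2 at 0.45, -0.37 and -0.51. No protease, glycosidase or lipid-breakdown gene passed the test between the MNNG fractions. The protease values ran from -0.27 (CTSL) to 0.13 (CTSB), with a median of -0.13. GALC, which splits galactose from myelin lipids, came nearest among the hydrolases (-0.55 ± 0.21, adjusted p = 0.0540). Among the 6 genes with a TCACGTGA promoter, MCOLN1 was called and ATP6V0D1, ATP6V1G1, LAMP1, CTSA and GAA were not (-0.38, -0.09, 0.09, -0.02 and 0.15).

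In all, 4 of the 40 genes were higher and 2 lower in MNNG_High, and the median of the 40 was -0.13. This count rests on the setting. Without the lung arrays 9 were called (4 higher, 5 lower), beside 44.4% of all genes, and with the tumor as a block as well 11 (4 higher, 7 lower), beside 55.8%. Beyond the 6, the blocked fit called ATP6V0A2 (adjusted p = 0.0142), ATP6V0D1 (0.0151), ATP6V1A (0.0142), GALC (0.00731) and MANBA (0.00894), each lower in MNNG_High. Of these, ATP6V0D1, ATP6V1A and GALC were also called without the block once the lung arrays were left out. Leaving out High MNNG-1235 also gave 11, beside 41.2% of all genes. Leaving out High MNNG-1231, High MNNG-1233, Low MNNG-1232 or Low MNNG-1235 gave 2, beside 9.54% to 16.8%. Without Low MNNG-1233 there were 3, beside 11.6%. Bringing all arrays to one median gave 3 higher and 8 lower, beside 32.9%. A second quantile normalization gave 4 higher and 0 lower, beside 7.22%. The GAPDH 3' minus 5' signal, a measure of RNA integrity, was 0.50 to 0.75 in MNNG_High and 0.34 to 0.41 in MNNG_Low. As a covariate it left 1 call, ATP6V0D2, beside 10.7% of all genes. Once the date tag was added to the fit, 0 of 40 were called by limma (4 at an unadjusted p under 0.05), beside 0.0208% of all genes.

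In 143B_High against 143B_Low, limma called 0 of 40 genes, beside 0.00694% of all genes, and 1 of the 40 had an unadjusted p under 0.05. The median of the 40 was -0.02, as over all genes. After ATP6V0D2, the highest values were those of CTSZ, a carboxypeptidase (0.35 ± 0.23), TFEB, and the sialidase NEU1 (0.28 ± 0.27). ATP6V0A2 (-0.35 ± 0.21) and ASAH1, the acid ceramidase (-0.28 ± 0.19), were the lowest. The difference between the lines also gave 0 of 40 (0.00694% of all genes). The MNNG and 143B differences, which share no array, had the same sign for 31 of the 40 genes (77.5%), beside 73.4% of all tested genes, and correlated at r = 0.729. Without ATP6V0D2 the correlation was 0.505, and over all 14418 genes it was 0.610. Genes share the libraries and are not independent.

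**Figure D2:**
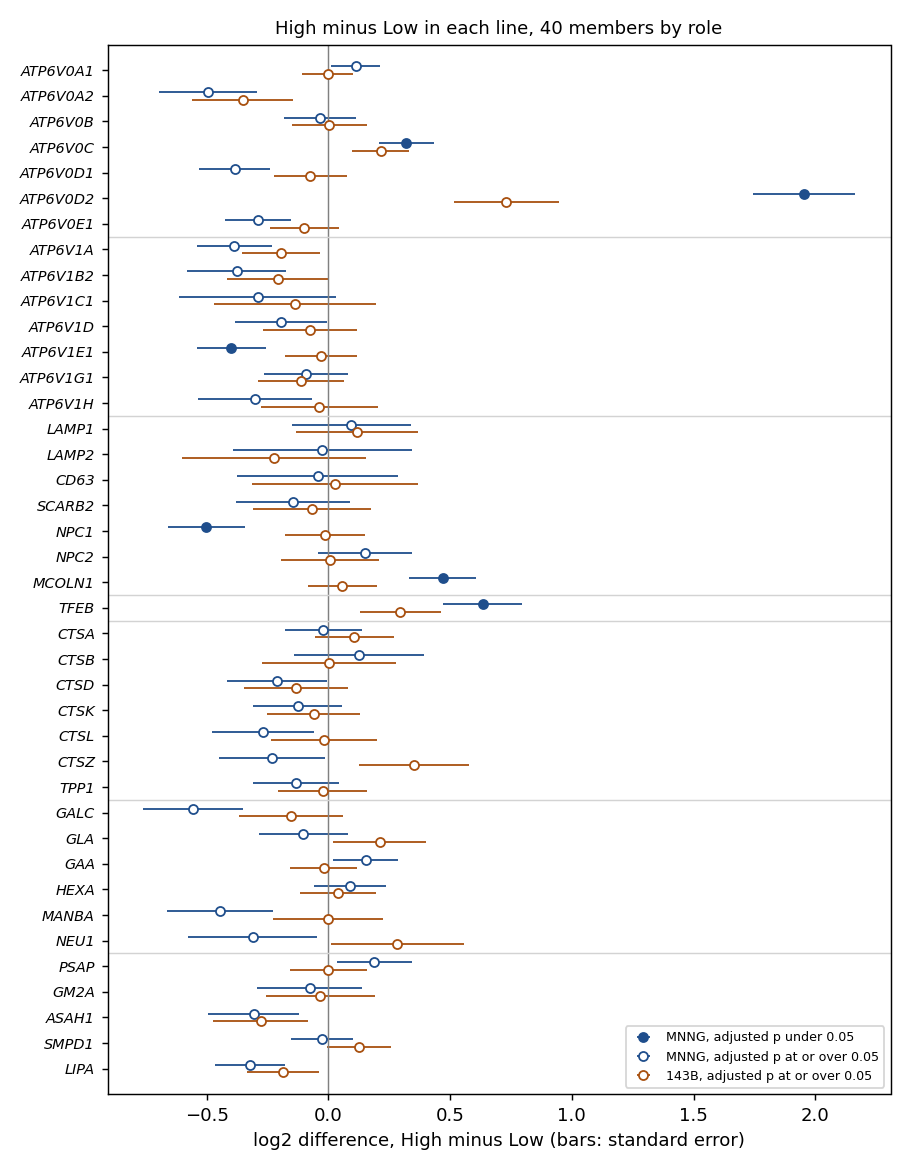
High minus Low log2 difference ± standard error (horizontal axis) for each of the 40 genes, in MNNG (blue) and 143B (brown), with grey lines between roles; filled points were called. ATP6V0D2 stands at 1.95 in MNNG and 0.73 in 143B, and the other 39 genes lie between -0.55 and 0.63.

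The tumor background was compared through the Low cells of both lines, whose date tags also differed, so line and tag cannot be told apart here. Of the 40 genes, 5 were higher and 5 lower in 143B_Low than in MNNG_Low, in a comparison that called 28.8% of all genes (14.4% higher, 14.5% lower). The widest difference was that of GALC, the galactosylceramidase lost in Krabbe disease. It was 8.24, 8.56, 9.19 and 8.75 in MNNG_Low, and 3.42, 3.53, 3.31, 3.39 and 3.24 in 143B_Low. In 143B_High it was 3.08, 3.20 and 3.39. All 8 arrays of 143B lay under the table median of 5.36 and all 8 bone arrays of MNNG above it. GALC was tested only because those MNNG arrays reached that value. The direction is therefore given, and the size (-5.30 ± 0.20, limma adjusted p = 5.47e-13) is uncertain. The p-value is no separate support. The other probe set of GALC was at -1.07, with the means of both groups under the table median. GALC ranked 5 from the bottom of 14418 genes.

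GLA, alpha-galactosidase A, was 8.56 ± 0.09 (SD, n = 5) in 143B_Low and 9.52 ± 0.23 (SD, n = 4) in MNNG_Low (-0.96 ± 0.17, adjusted p = 3.53e-04). No other glycosidase was called. Of the proteases, TPP1, a tripeptidyl peptidase, was higher in 143B_Low (0.74 ± 0.17) as was CTSA, a carboxypeptidase that protects NEU1 (0.46 ± 0.15). CTSK, the collagenase of osteoclasts, was lower (-0.54 ± 0.17). CTSA was called in 5 and CTSK in 4 of the 9 fits that left out an array. SMPD1, the acid sphingomyelinase, was higher (0.44 ± 0.12), and the other 4 lipid-breakdown genes were above 0 without being called.

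NPC1 was 8.70 to 9.20 in 143B_Low and 7.76 to 7.99 in MNNG_Low. The groups were well apart, 2.0-fold higher in 143B_Low (1.0 ± 0.15, adjusted p = 5.10e-05). Its partner NPC2, which hands it cholesterol, differed by 0.40 ± 0.18 and was not called (adjusted p = 0.116). In the V-ATPase, ATP6V1H, a regulatory V1 subunit, was lower in 143B_Low (-0.86 ± 0.22, adjusted p = 0.00595), and so was ATP6V0E1 (-0.46 ± 0.13). The rotor subunit ATP6V1D was higher (0.50 ± 0.18, adjusted p = 0.0409), a call lost in all 9 fits that left out an array. ATP6V0E1 turned to 0.11 when probe sets open to cross-hybridization were dropped.

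**Figure D3:**
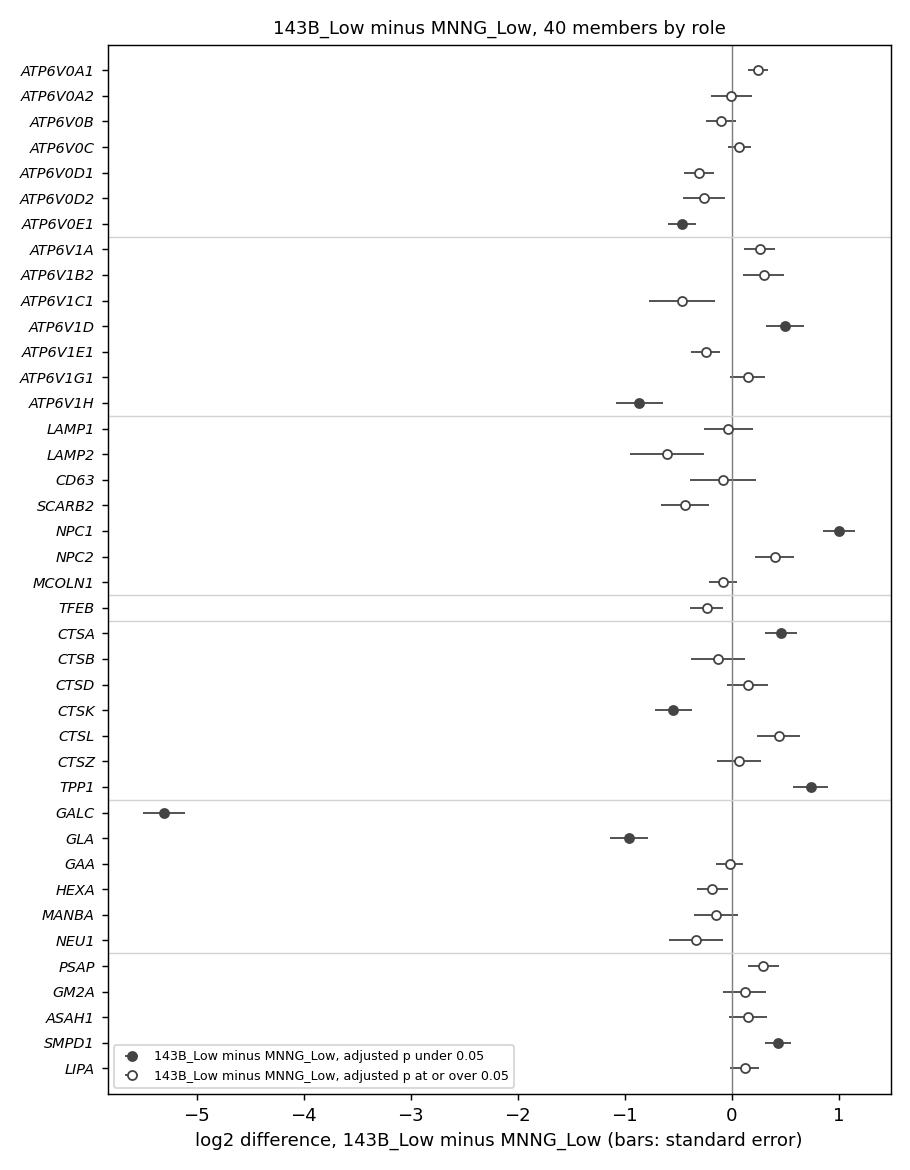
Log2 difference of 143B_Low minus MNNG_Low ± standard error (horizontal axis) for each of the 40 genes, ordered by role; filled points were called. GALC lies at -5.30, and the other 39 genes lie between -0.96 and 1.0.

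Genes of the same pathway that were not members were followed in lists. Of 16 tested regulators, 3 were higher and 7 lower in 143B_Low than in MNNG_Low, where 28.8% of all genes were called. RRAGD, a GTPase that recruits mTORC1 to lysosomes, was higher (2.22 ± 0.15, adjusted p = 1.84e-09). TFE3 (-1.61 ± 0.13) and MITF (-1.78 ± 0.23) were lower, while TFEB itself was not called (-0.23 ± 0.15). The second probe set of TFEB, which reached the table median on all 18 arrays, was at -0.93 and was not tested. The contrast of TFEB with its relatives therefore rests on the set used. In MNNG_High, MTOR was lower (-0.70 ± 0.14, adjusted p = 0.00469) and RPTOR, its partner, higher (0.39 ± 0.13, adjusted p = 0.0354), and the other 14 regulators were not called. Between these fractions 26.1% of all genes were called.

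Between the MNNG fractions, 26.1% of all genes were called (10.6% higher, 15.5% lower). Of 11 other V-ATPase genes 1 was called, ATP6V1C2 (0.68 ± 0.20), whose mean was under the table median in both fractions. Among 25 other hydrolases 1 was higher, the arylsulfatase ARSA (0.42 ± 0.15), and 2 were lower, SCPEP1 (-0.59 ± 0.18) and ARSB (-0.55 ± 0.19). Among 21 other membrane proteins 3 were lower and 0 higher, led by OSTM1, a chloride channel partner (-0.74 ± 0.15), and SLC38A9, an amino acid sensor (-0.72 ± 0.18). GNPTAB, which starts the mannose 6-phosphate tag of lysosomal enzymes, was the only 1 of 9 sorting genes called (-0.78 ± 0.21). None of these genes was called in 143B, where 0.00694% of all genes were. In 143B_Low against MNNG_Low, the V-ATPase gene TCIRG1, the osteoclast form of subunit a, was lower (-1.15 ± 0.13), and the calcium channels MCOLN2 (1.40 ± 0.15) and MCOLN3 (1.34 ± 0.22) were higher.

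The lung arrays were set against MNNG_Low and MNNG_High to see how metastases differ from bone tumors. Against MNNG_Low, 7 of the 40 genes were higher and 32 lower, and MANBA was not called, in a comparison that called 87% of all genes (35.1% higher, 51.9% lower). The median of the 40 was -2.58, beside -0.64 over all genes. Against MNNG_High, which shares the lung arrays with it, 7 were higher and 30 lower (82.4% of all genes called, 34.8% higher and 47.6% lower), with a median of -2.27 beside -0.37. The genes above MNNG_Low were ATP6V0D2, MCOLN1 (1.98 ± 0.17), TFEB (1.96 ± 0.20), ATP6V0A1 (1.36 ± 0.12), ATP6V0C (1.01 ± 0.14), GAA, the acid alpha-glucosidase (0.68 ± 0.16), and SMPD1 (0.56 ± 0.16). The 4 genes called higher in MNNG_High are among these 7. Both comparisons use the MNNG_Low arrays.

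By role, 3 of 7 V0 subunits were higher and 4 lower on the lung arrays than in MNNG_Low. ATP6V0D1 was 7.44 and 6.84 in the lung against 9.80 to 10.08 in MNNG_Low (-2.78 ± 0.18, adjusted p = 5.32e-11), far below and opposite to ATP6V0D2. All 7 V1 subunits were lower, from -5.11 (ATP6V1D) to -1.14 (ATP6V1C1). ATP6V1C1 was not called without the lung mixture (-0.11, adjusted p = 0.755). Under a second quantile normalization its value was 0.03 and that of ATP6V0B turned from -1.67 to 0.20.

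On the probe sets used, all 7 proteases were lower, led by CTSB (-4.81 ± 0.33), and CTSK differed least (-0.54 ± 0.22, adjusted p = 0.0325). Of 7 membrane proteins 6 were lower. CD63, a tetraspanin, was 9.05 and 6.42 on the lung arrays, which differed from each other by more than all bone arrays (12.26 to 12.64) did. LAMP1, the main lysosomal membrane glycoprotein, was 10.67 and 8.86 in the lung and 12.65 to 12.81 in MNNG_Low. GALC (4.65 and 4.29) and NPC1 (5.09 and 4.96) fell under the table median there. Of the 24 members with more than 1 probe set reaching the table median on at least 3 arrays, 11 had sets on both sides of 0 in this comparison. These were ATP6V0C, ATP6V0E1, ATP6V1C1, ATP6V1D, LAMP2, NPC1, CTSZ, TPP1, GALC, HEXA and GM2A. CTSZ was at -2.45 on the set used and at 1.72 on its other set, so the count of proteases rests on the choice of set. LAMP2 was at -2.82 and, on 1 of its 3 other sets, at 0.25, and HEXA turned from -0.67 to 1.20 under a second quantile normalization. ATP6V0C, higher on the set used, was at -0.53 on its other set.

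Of the 6 genes with a TCACGTGA promoter, MCOLN1 and GAA were higher on the lung arrays and ATP6V0D1, ATP6V1G1 (-3.16 ± 0.21), LAMP1 (-2.99 ± 0.30) and CTSA (-2.58 ± 0.19) lower. MCOLN1, GAA and LAMP1 each held 2 matches in the promoter window, and the other 3 genes 1 each.

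The lung difference went with how bright a gene was in cells outside the comparison. Over the 40 genes it correlated at r = -0.564 with the mean signal in 143B_Low, and over all 14418 genes at -0.722, as a description with no test. Of the 20 brighter members, with at least 9.47 in 143B_Low, 1 was higher and 19 lower, and the median was -3.07. Of all 2785 genes as bright, 121 were higher and 2556 lower, with a median of -3.76. Of the 20 dimmer members 6 were higher and 13 lower, and the median was -1.15. Of all 11633 genes as dim, 4943 were higher and 4921 lower, with a median of -3.02e-04. ACTB 3' minus 5' signal was -2.16 and -2.97 on the lung arrays and 1.38 to 1.74 in MNNG_Low. Of 8 lung epithelium markers 6 were higher on the lung arrays than in MNNG_Low and 1 lower. Of 6 endothelium markers 6 were higher, and of 10 macrophage markers 9 were higher and 1 lower. Over all genes 35.1% were higher and 51.9% lower in this comparison. The part of these measures in the lung values was not tested.

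**Figure D4:**
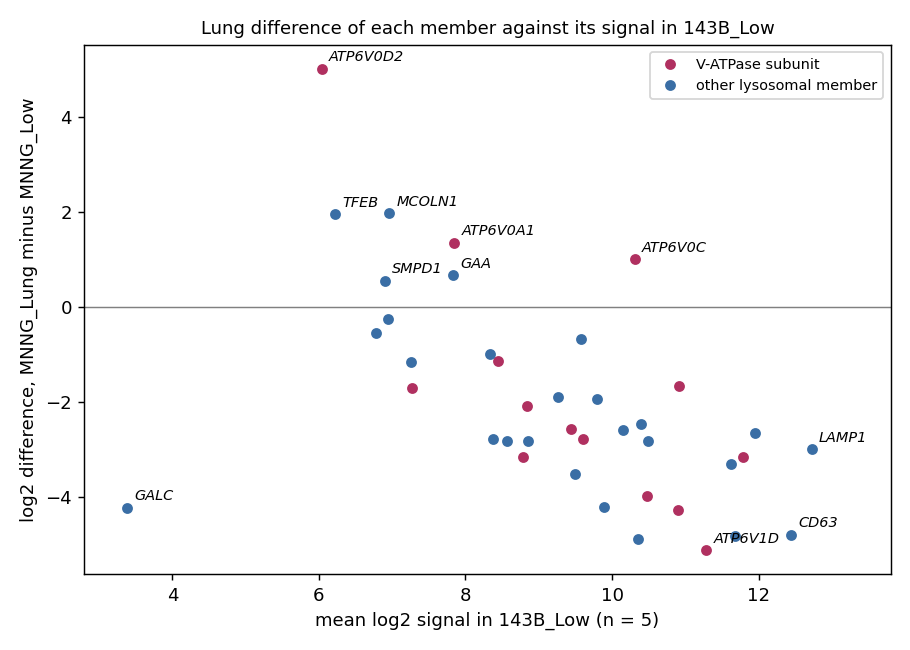
Log2 difference of MNNG_Lung minus MNNG_Low (vertical axis) against mean log2 signal in 143B_Low (horizontal axis) for the 40 genes, with V-ATPase subunits in red. The 7 genes above 0 were all called and are named; ATP6V0D2 stands at 5.02, while CD63 and LAMP1, at the right edge, lie at -4.79 and -2.99.

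The genes whose signal followed ATP6V0D2 most closely over the 18 arrays were CACFD1 (r = 0.992), LINC00523 (0.990), OTUD5 (0.989), ESS2 (0.989) and SLC17A7 (0.987). Over the 16 bone tumor arrays the same 5 genes had r of 0.981, 0.963, 0.961, 0.961 and 0.956. The lung arrays stand apart and weigh on the first set. Among the members, TFEB was closest, at 0.982 over 18 arrays and 0.944 over the 16, followed by MCOLN1 (0.941 and 0.765) and ATP6V0C (0.923 and 0.715). ATP6V1A lay lowest, at -0.929 and -0.877.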

How the data were processed

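The authors deposited 1 log2 value per probe set and array, which the submitters' processing notes credit to RMA, with a version and array set not given in the sources used here. RMA is meant to bring arrays to a like distribution, so a shift common to most genes can be lost. The deposited values still differed in interquartile range, from 2.09 (lung mixture) to 3.48 (143B_Low array 143B-1254). RNA was labelled from a small fixed amount with a 3' kit, per the labels' protocols. The table holds 54675 probe sets, of which 41097 are annotated to 1 gene. Each gene was read from its probe set of highest mean signal, and a gene was tested if at least 3 of 18 arrays reached 5.36, the median over the whole table. No column was left without a sample.

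Groups came from the sample titles. Differences were fitted in R 4.3.3 with limma 3.58.1, with a mean for each of the 5 groups, over 6 comparisons. The code was tested on simulated data. Figures were drawn with matplotlib 3.10.9. P-values rest on the spread between arrays within a group, pooled over the 5 groups. Lung p-values therefore do not measure the spread between the 2 lung arrays alone, which correlated at 0.865. The number of arrays limits the precision.

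Same-numbered MNNG arrays come from the same tumor, and their deviations from the group means correlated at 0.494, 0.370, 0.299 and 0.579. In 143B the pair 143B-1253 correlated at 0.542. Pool 51&52 correlated at -0.192 with 143B-1251 and at 0.529 with 143B-1252. Pool 54&55 correlated at 0.243 with 143B-1254, at 0.063 with 143B-1255 and at 0.259 with 143B-1251, which is not read as its tumor. The 143B pools were blocked with both of the tumors they were read as.

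Members and lists were chosen with earlier results of these data known. Named were ATP6V0D2 and ATP6V0D1 by array, up to 3 called genes of smallest p per role, list and comparison, other members by their range or beside these, TFE3, MITF and TFEC, marker genes, and the 5 genes most like ATP6V0D2. Alternatives were other normalizations, filters, probe set rules, array weights, array subsets, the tumor block, the GAPDH ratio, the date tag and leaving out each array.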

Additional observations from a re-analysis of the deposited data

Results flagged for a closer look

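Of 120 combinations of a gene and a bone tumor group of 4 or 5 arrays, 10 held 1 array far from the others, where chance gives about 1 in 20. In MNNG_High, tumor MNNG-1233 stood high for ATP6V0B (11.19, others 10.89 to 10.93) and low for LAMP2 (10.43, others 11.21 to 11.32) and LIPA (9.13, others 9.51 to 9.58). Tumor MNNG-1231 stood low in MNNG_High for NPC2 (10.90, others 11.48 to 11.58) and for CTSB (11.51, others 12.02 to 12.11). In MNNG_Low, tumor MNNG-1232 stood high for ASAH1 (9.53, others 9.26 to 9.30). In 143B_Low, tumor 143B-1252 stood high for NPC1 (9.20, others 8.70 to 8.81) and low for CTSB (11.01, others 11.71 to 11.96). Tumor 143B-1255 stood high for ATP6V0C (10.49, others 10.23 to 10.29) and tumor 143B-1251 for LIPA (10.12, others 9.79 to 9.86). The MNNG_High arrays named here, MNNG-1231 and MNNG-1233, were also those with the narrowest signal ranges, 2.84 and 2.76.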

How the results depend on the processing

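The 6 calls in MNNG_High against MNNG_Low, beside 26.1% of all genes, became 11 with all arrays at one median (32.9% of all genes). They became 2 with only the groups compared (16.1%) and 9 without the lung arrays (44.4%). With the tumor block and without the lung arrays together they were 11 (55.8%). The GAPDH ratio left 1 (10.7%) and the date tag 0 (0.0208%). Without single arrays the calls were 2 to 11 (9.54% to 41.2%). ATP6V0D2 was called under each of these except the date tag setting. Array weights gave 1 call in 143B, beside 1.39% of all genes, and 1 between the lines, beside 1.62%. The 10 calls of 143B_Low against MNNG_Low, beside 28.8% of all genes, became 5 with a second quantile normalization (22.4% of all genes). They were 6 of 33 members tested with no _x_at and _s_at probe sets (28.4%). With array weights there were 23 (48.7%), and with only the groups compared 20 (45.3%). Without single arrays the calls were 7 to 9 (23.9% to 26.1%). The shift of ATP6V0D2 against the other subunits was 1.74 in MNNG with array weights, and in the lung 7.95 with a second quantile normalization and 7.07 with means over probe sets. Without single arrays it was 2.0 to 2.53 in MNNG, 0.67 to 0.96 in 143B and 7.44 to 7.78 in the lung. Lung calls numbered 37 to 39 against MNNG_Low and 36 to 38 against MNNG_High without single arrays.

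Without _x_at and _s_at probe sets, TPP1 was 0.46 in MNNG_High (called) and 1.66 and 1.20 on the lung arrays against Low and High, HEXA 1.19 and 0.94, and ATP6V0E1 0.11 in 143B_Low. With means over probe sets, the lung values against Low and High were 0.025 and 0.14 for ATP6V0A2, 0.77 and 0.65 for HEXA, and 0.32 and 0.31 for GM2A. A second quantile normalization gave 0.20 and 0.035 for ATP6V0B, 1.20 and 0.85 for HEXA, and 0.026 against Low for ATP6V1C1. The cause was not tested. Uncalled values changed sign without being called 71 times in MNNG, apart from TPP1 once called, 87 times in 143B, 80 between the lines, 26 between the Low cells, and 2 and 3 times in the lung.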
